A study of Homo sapiens with 8 samples.

Results

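The HIF factors and hypoxia targets, 10 genes of the oxygen-sensing pathway, were followed in RNA sequencing of 2 established human renal cell carcinoma (RCC) lines. They are HIF1A, EPAS1, ARNT, EGLN1, EGLN3, CA9, VEGFA, NDRG1, ADM and BNIP3, chosen by name, with earlier results of these data known. Ensembl identifiers were matched to these symbols, and 9 of the 10 members had values in both cell lines, among 25431 genes listed for 769-P and 24190 for CAKI-1. CA9, a membrane carbonic anhydrase, was not analysed here.

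769-P and CAKI-1 cells came from a cell bank and were kept in RPMI medium and in MEM, respectively, each with fetal bovine serum and antibiotics. For the experiment, each line spent 16 hours without branched-chain amino acids (BCAA) or with isoleucine at 0.38 mM, leucine at 0.38 mM and valine at 0.17 mM. The study's methods describe a BCAA-depleted medium rebuilt from RPMI powder lacking amino acids, with dialyzed serum. The labels give 8 libraries, 2 for each line and condition, and name no genetic change, no oxygen level and no hypoxic treatment. They do not say whether replicates were separate cultures, so p-values measure only the spread between these libraries, which may be technical. The comparisons ask how much of each gene's RNA the 2 lines held and how it differed with BCAA.

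The hypoxia-inducible factors (HIF) are pairs of an oxygen-regulated alpha subunit, encoded by HIF1A or EPAS1 (HIF-2α), and a stable partner encoded by ARNT. When oxygen is present, prolyl hydroxylases such as EGLN1 and EGLN3 mark the alpha subunit, and the VHL protein, a ubiquitin ligase subunit, then directs it to degradation. Loss of VHL is a hallmark of clear cell RCC, and it leaves HIF active in normal oxygen. HIF pairs bind DNA at short elements with the core ACGTG or GCGTG and raise genes for blood vessel growth, such as VEGFA and ADM, for stress and growth control, such as NDRG1, and for mitophagy, such as BNIP3. Alpha subunits are controlled largely as proteins, which RNA sequencing does not measure.

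The 250 bases before the RefSeq gene start (GRCh38.p14) of both alpha subunit genes and of EGLN3 are shown, because EPAS1 was called lower with BCAA in both lines and HIF1A in neither, and because EGLN3 had the lowest level of all members. The first lies on chromosome 2 at chr2:46297157-46297406, plus strand. It sits inside the longer EPAS1 gene of GENCODE 29, chr2:46293667-46386703, with 5 bases in an exon. The HIF1A window, chr14:61695263-61695512 on the plus strand, ends just before the gene (chr14:61695513-61748259). The EGLN3 window is chr14:33951075-33951324 on the minus strand, with 7 bases in an exon. This window also sits inside the longer EGLN3 gene of GENCODE 29, chr14:33924231-34462774. Each is written 5′ to 3′ on the gene's strand, and capitals mark GCGTG or ACGTG on either strand.
EPAS1: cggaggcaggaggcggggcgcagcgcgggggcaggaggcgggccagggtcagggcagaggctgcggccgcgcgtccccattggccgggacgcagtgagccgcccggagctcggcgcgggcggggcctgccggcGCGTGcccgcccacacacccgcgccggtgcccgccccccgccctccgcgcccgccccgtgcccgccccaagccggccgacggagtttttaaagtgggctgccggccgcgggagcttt
HIF1A: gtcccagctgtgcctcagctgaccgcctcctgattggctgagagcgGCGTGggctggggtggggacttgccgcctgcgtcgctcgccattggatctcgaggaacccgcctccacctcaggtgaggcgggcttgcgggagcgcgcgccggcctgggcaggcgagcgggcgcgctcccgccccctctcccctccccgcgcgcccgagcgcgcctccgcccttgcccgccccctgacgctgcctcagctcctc
EGLN3: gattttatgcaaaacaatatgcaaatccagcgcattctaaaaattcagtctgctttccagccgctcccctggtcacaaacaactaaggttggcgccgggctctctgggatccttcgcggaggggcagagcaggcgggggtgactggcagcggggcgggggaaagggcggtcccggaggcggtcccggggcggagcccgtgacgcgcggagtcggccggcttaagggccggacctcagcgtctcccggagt
EPAS1 held 1 GCGTG, between 117 and 113 bases before the start, and this HIF1A window held 1, between 204 and 200 bases before it. HIF1A has a second RefSeq start, whose window (chr14:61697462-61697711, with 90 bases in exons) held neither core and is not printed. EGLN3 held neither core, and none of these windows held TGATGCAA, the core of the amino acid response element. Of the 10 members, 8 had an entry, 3 of them with ACGTG (EGLN1, CA9 and BNIP3) and 4 with GCGTG (EPAS1, ADM, BNIP3 and the first HIF1A window). Of 35116 such windows, 18.5% held ACGTG, 32.2% held GCGTG and 0.772% held TGATGCAA on either strand. A match of letters is a description and not a binding site.

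Values below are normalized read counts as deposited, that is, reads per gene divided by 1 size factor per library. Depth ran from 30979773 to 64256834 reads on listed genes. In 769-P, both libraries with BCAA were deeper than both without. Each line was tested with limma on log2(value + 1), with Benjamini-Hochberg adjustment over all genes tested, and a gene was called at an adjusted p under 0.05. PAX8, a renal lineage marker, was high in both lines, between 8700.3 and 23271. It was called lower with BCAA in 769-P (log2 fold change -0.64) and not in CAKI-1 (-0.17). PAX2 and LRP2 had values in 769-P alone, LRP2 with at most 9 reads per library. Of 4 genes each, the summed endothelial markers reached at most 14.4 and the immune markers at most 13.3 in any library. Fibroblast markers summed to between 33.5 and 154 in 769-P, mostly PDGFRB, with no values for LUM. In CAKI-1 they summed to between 3681 and 4155, mostly LUM and PDGFRB. PDGFRB was higher with BCAA in both lines (log2 fold change 1.88 in 769-P and 0.58 in CAKI-1), and its part in the results was not tested. VHL itself stood at 14.4 and 3.42 with BCAA and at 8.69 and 26.9 without in 769-P, and between 2476 and 2588 in CAKI-1.

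In 769-P cells, 6 of the 9 members tested were lower with BCAA and 1 was higher. Of 22391 genes tested in this line, 38.4% were called, 18.2% lower with BCAA and 20.3% higher. EPAS1, VEGFA, NDRG1 and ADM fell by 6.23-fold to 9.39-fold. EGLN3 and BNIP3 fell less, EGLN1 rose slightly, and HIF1A and ARNT were not called. The median log2 fold change of the members was -0.87, beside -0.02 over all genes tested. Both libraries with BCAA lay below both without for 7 members and above for 1, where 33.5% of all genes lay below and 33.6% above.

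EPAS1, which encodes HIF-2α, stood at 825 and 823 with BCAA and at 7410.4 and 7807 without in 769-P. The libraries without BCAA were far above those with it, and the spread within each condition was small. EPAS1 was 9.23-fold lower with BCAA (log2 fold change -3.20, SE 0.06, adjusted p = 9.3e-12). HIF1A, which encodes the other alpha subunit, stood at 279.8 and 251 with BCAA and at 337 and 303 without. Its conditions did not overlap, but the gap was close to the spread within them (log2 fold change -0.27, SE 0.13, adjusted p = 0.13). HIF1A was called lower with the spread taken over all 8 libraries (adjusted p = 0.033). In the fit over the other 7 libraries, it was called without replicate 1 with BCAA (adjusted p = 0.028) or without replicate 2 of the group without BCAA (adjusted p = 0.03). HIF1A overlaps the antisense gene HIF1A-AS1, which reached at most 3.03 in 769-P and 5.15 in CAKI-1. ARNT, the shared partner, stood at 2562 and 2392 with BCAA and at 2353 and 2524 without. The ARNT libraries of the 2 conditions overlapped, with a log2 fold change of 0.02 (95% confidence interval -0.11 to 0.16, adjusted p = 0.81).

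The targets VEGFA, NDRG1 and ADM moved by a similar size. VEGFA, the principal growth factor for blood vessels, stood at 2621 and 2533 with BCAA and at 24271 and 24144 without. Replicates were nearly equal for VEGFA, and the conditions were 9.39-fold apart (log2 fold change -3.23, SE 0.04, adjusted p = 2.5e-12). The gene lies at chr6:43770184-43786487 on the plus strand, and 188 of its exonic bases overlap an annotated gene on the opposite strand. NDRG1, a stress-induced growth regulator on the minus strand of chromosome 8 (133237171 to 133302022), stood at 5725 and 6143 with BCAA and at 46716 and 47182 without. It had the largest value of all members without BCAA and was 7.91-fold lower with it (log2 fold change -2.98, SE 0.04, adjusted p = 3.5e-12). ADM, which encodes the vasodilator peptide adrenomedullin, is a short gene at chr11:10304680-10307397 on the plus strand. It stood at 629 and 703 with BCAA and at 3962 and 4332 without. Its conditions were well apart, 6.23-fold lower with BCAA (log2 fold change -2.64, SE 0.07, adjusted p = 2.5e-10). Among the 3431 genes called lower in 769-P whose mean value reached 100, VEGFA ranked 10 by size of the fall, EPAS1 ranked 12, NDRG1 ranked 18 and ADM ranked 26. These ranks are a description of where the members stood.

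BNIP3, a mitochondrial membrane protein that promotes mitophagy, changed far less than the other targets. In 769-P it stood at 2416 and 2562 with BCAA and at 2859 and 2793 without. Its conditions did not overlap, and it was 1.14-fold lower with BCAA (log2 fold change -0.18, SE 0.06, adjusted p = 0.022). BNIP3 has many processed copies, and the copy BNIP3P1 had values from 829.5 to 884 in 769-P and from 1037 to 1137 in CAKI-1. Reads may be split between them, so BNIP3 levels are uncertain. With 1 library left out and the spread taken over the other 7, the BNIP3 call held without replicate 2 with BCAA (adjusted p = 0.018) and was lost without any other library (adjusted p = 0.051 to 0.12).

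The prolyl hydroxylases among the members, EGLN1 and EGLN3, were called in opposite directions in 769-P. EGLN2, a relative outside the members, overlapped between conditions and was not called (log2 fold change -0.23, adjusted p = 0.31 by limma). EGLN1, the main HIF hydroxylase in normal oxygen, stood at 6343 and 6108 with BCAA and at 5490.1 and 5721 without. It was 1.11-fold higher with BCAA (log2 fold change 0.15, SE 0.05, adjusted p = 0.025), and this call was lost with no filter on low values (adjusted p = 0.051) and with quantile normalization (adjusted p = 0.066). EGLN3, which is itself a hypoxia target, had the fewest reads of all members. It held 88 and 73 reads with BCAA and 100 and 93 without, and it stood at 66.7 and 62.4 with BCAA and at 124 and 114 without. Reads and values were both higher without BCAA, where the libraries were shallower. EGLN3 was 1.84-fold lower with BCAA (log2 fold change -0.87, SE 0.22, adjusted p = 0.0075). With the spread taken over all 8 libraries, this EGLN3 call was lost (adjusted p = 0.059), so that the 6 members lower then held HIF1A in place of EGLN3. With 1 library left out and the spread taken over the other 7, EGLN3 was called in no case (adjusted p = 0.13 to 0.2). EGLN1 was then called without replicate 2 with BCAA (adjusted p = 0.04) and not without any other library of the line (adjusted p = 0.052 to 0.19).

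**Figure D1:**
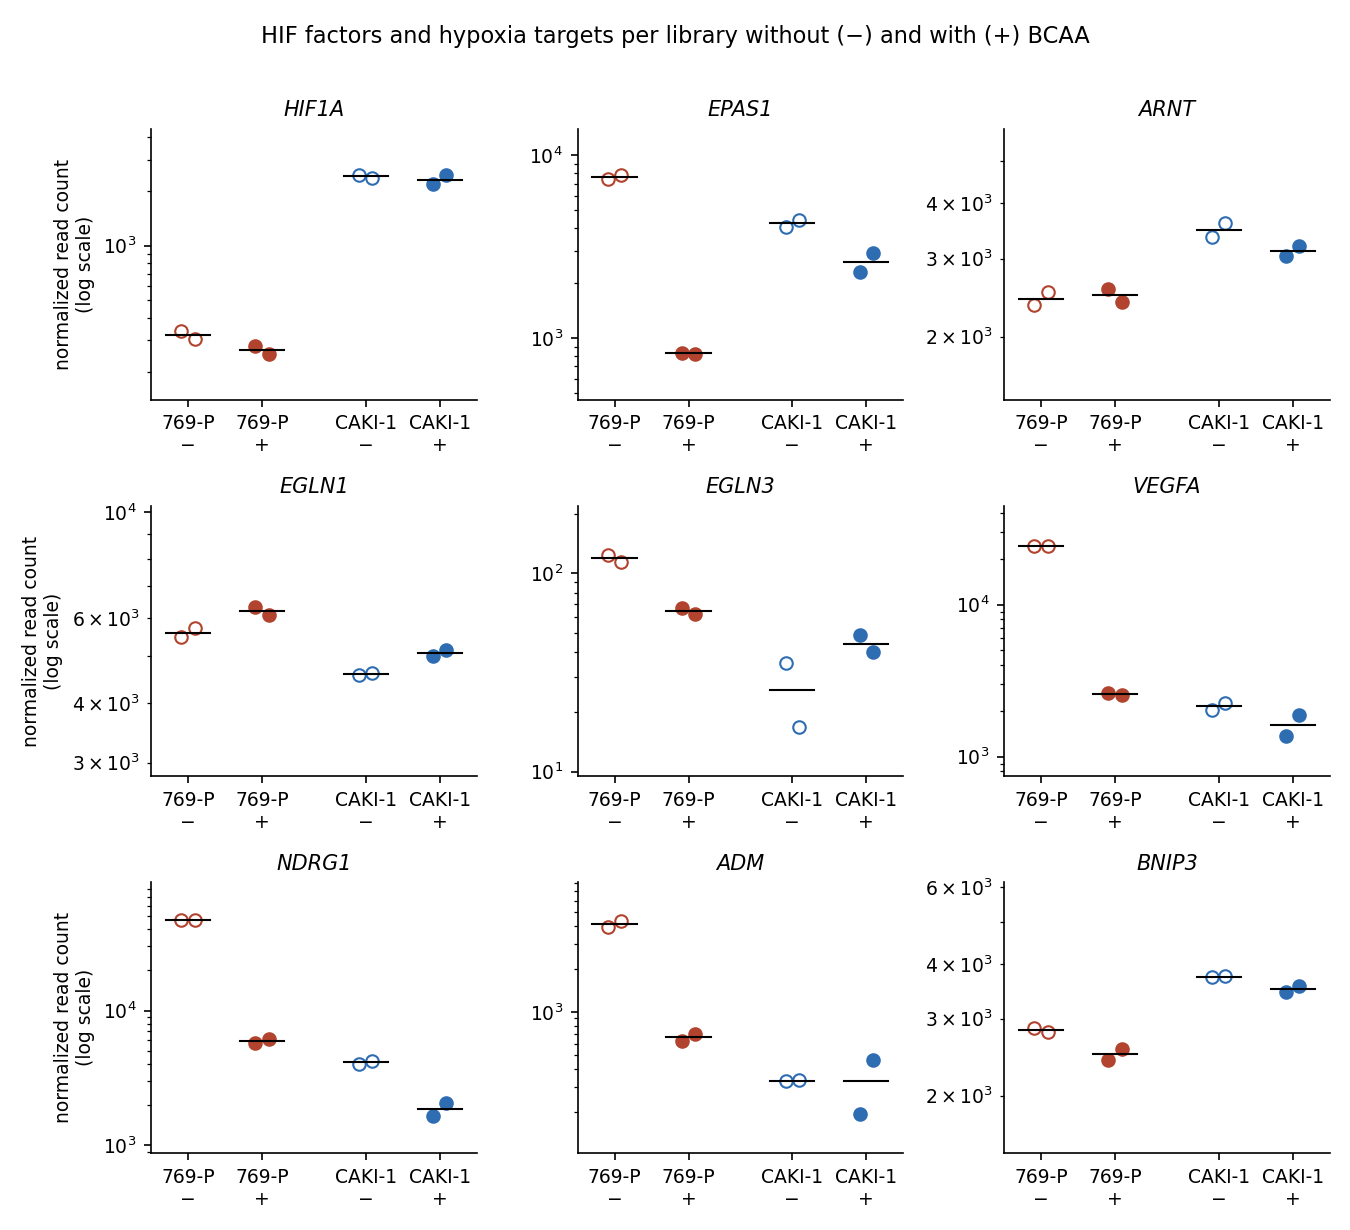
Normalized read count (log scale, scaled separately for each gene) of the 9 members in each of the 8 libraries, without (open) and with (filled) BCAA in 769-P (red) and CAKI-1 (blue). Points are libraries and black bars are the means of 2 libraries. EPAS1, VEGFA, NDRG1 and ADM show open red points far above filled red points, while ARNT and BNIP3 stay within a narrow range.

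In CAKI-1 cells, 3 of the 9 members, EPAS1, VEGFA and NDRG1, were lower with BCAA, and 0 were higher by limma, edgeR or DESeq2. At an unadjusted p under 0.05, 1 further member was lower, ARNT, and 1 was higher, EGLN1. With the spread of all 8 libraries, EGLN1 was called (adjusted p = 0.042) and ARNT was not (adjusted p = 0.087). Of 21347 genes tested in this line, 19.9% were called, 9.05% lower and 10.8% higher. The falls ranged from 1.32-fold to 2.22-fold. The median log2 fold change of the members was -0.15, beside -0.01 over all genes tested. Both libraries with BCAA lay below both without for 5 members and above for 2, where 28.8% of all genes lay below and 28.9% above.

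NDRG1 had the largest fall in CAKI-1. It stood at 1657 and 2056 with BCAA and at 4033 and 4214 without, so that both libraries without BCAA were far above both with it. NDRG1 was 2.22-fold lower (log2 fold change -1.16, SE 0.09, adjusted p = 9.7e-06). EPAS1 stood at 2292 and 2935 with BCAA and at 4049.6 and 4439.6 without. The libraries with BCAA were further from each other than in 769-P, yet both lay under those without, and EPAS1 was 1.62-fold lower (log2 fold change -0.71, SE 0.10, adjusted p = 0.00055). VEGFA stood at 1368 and 1878 with BCAA and at 2029 and 2257 without. Its conditions did not overlap, but the higher library with BCAA came near the lower one without it. VEGFA was 1.32-fold lower (log2 fold change -0.42, SE 0.12, adjusted p = 0.033). This call was lost with DESeq2 (adjusted p = 0.21) and with no filter on low values (adjusted p = 0.083). It was also lost with quantile normalization and with reads thinned to equal depth. The fall ranged from 0.19 to 0.65 on the log2 scale with 1 library left out (log2 fold changes -0.188 and -0.645).

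The other members of CAKI-1 cells were not called. HIF1A stood at 2192 and 2449 with BCAA and at 2471 and 2372 without, and the conditions overlapped (log2 fold change -0.06, adjusted p = 0.61). ARNT stood at 3035 and 3205 with BCAA and at 3366 and 3607 without (log2 fold change -0.16, adjusted p = 0.11). Both ARNT libraries with BCAA were the lower ones, by a margin that did not pass the test. EGLN1 stood at 5008 and 5167 with BCAA and at 4567 and 4609 without, again with the higher values with BCAA (log2 fold change 0.15, adjusted p = 0.093). BNIP3 stood at 3453 and 3555 with BCAA and at 3726 and 3759 without (log2 fold change -0.09, adjusted p = 0.31). The BNIP3 libraries with BCAA were lower by a small margin. EGLN3 stood at 48.6 and 39.9 with BCAA and at 35.2 and 16.7 without, from only 13 to 50 reads per library. Its values with BCAA were the higher ones, with a wide interval (log2 fold change 0.83, 95% confidence interval -0.06 to 1.73, adjusted p = 0.19). With 1 library left out, the EGLN3 log2 fold change ran from 0.318, without replicate 2 of the group without BCAA, to 1.35, without replicate 1 of that group. It was called in 1 of 18 alternatives, the latter in the fit over the other 7 libraries (adjusted p = 0.015).

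ADM in CAKI-1 could not be given a direction. It stood at 192 and 462 with BCAA and at 329.8 and 332 without. The 2 libraries without BCAA were nearly equal and lay between the 2 with it, which gave a log2 fold change of -0.15 (SE 0.29, adjusted p = 0.78). Leaving out replicate 1 with BCAA turned the log2 fold change to 0.48, and leaving out replicate 2 made it -0.785. Replicate 2 with BCAA was above replicate 1 for 8 of the 9 members, with a median gap of 0.16 on the log2 scale. The same held for all 8 genes of the amino acid response list, with a median gap of 0.24, and for 24 of 28 other hypoxia targets (0.131). The share over all genes was not taken, so this gap cannot be called particular to these genes. The gap for ADM with BCAA was 1.26. Without BCAA, replicate 2 was also the higher for 7 of the 9 members (median gap 0.0135) and 7 of the 8 amino acid response genes (0.053). For the other hypoxia targets it was 15 of 28 (0.0192). In a fit over the other 7 libraries, EPAS1 and NDRG1 were still lower without replicate 1 with BCAA (log2 fold change -0.531, adjusted p = 0.00021, and -1.0, adjusted p = 2.6e-07). VEGFA was then not called (-0.188, adjusted p = 0.077), nor was it without replicate 2 of the group without BCAA (-0.34, adjusted p = 0.1).

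The BCAA effect differed between the lines for 5 of the 9 members, all further down in 769-P. Of the 19406 genes tested in both lines, 21.1% were called, 10.1% further down in 769-P and 10.9% further up, in 1 limma fit with a line by treatment term. The difference in log2 fold change (769-P minus CAKI-1) was -2.50 for EPAS1 (SE 0.13, adjusted p = 3.5e-08) and -2.81 for VEGFA (SE 0.15, adjusted p = 4.1e-08). For NDRG1 it was -1.83 (SE 0.11, adjusted p = 1.5e-07) and for ADM -2.49 (SE 0.37, adjusted p = 0.00031). EGLN3 differed by -1.70 (SE 0.49, adjusted p = 0.024), with values that went down in 769-P and were higher in CAKI-1. That EGLN3 difference rested on 13 to 100 reads per library and was lost with reads thinned to equal depth (adjusted p = 0.067). For EGLN1 the difference was 0.00 with a 95% confidence interval from -0.15 to 0.15, and for BNIP3 it was -0.09 with an interval from -0.26 to 0.08. HIF1A (-0.20, interval -0.49 to 0.08) and ARNT (0.18, interval -0.01 to 0.38) were not called either.

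**Figure D2:**
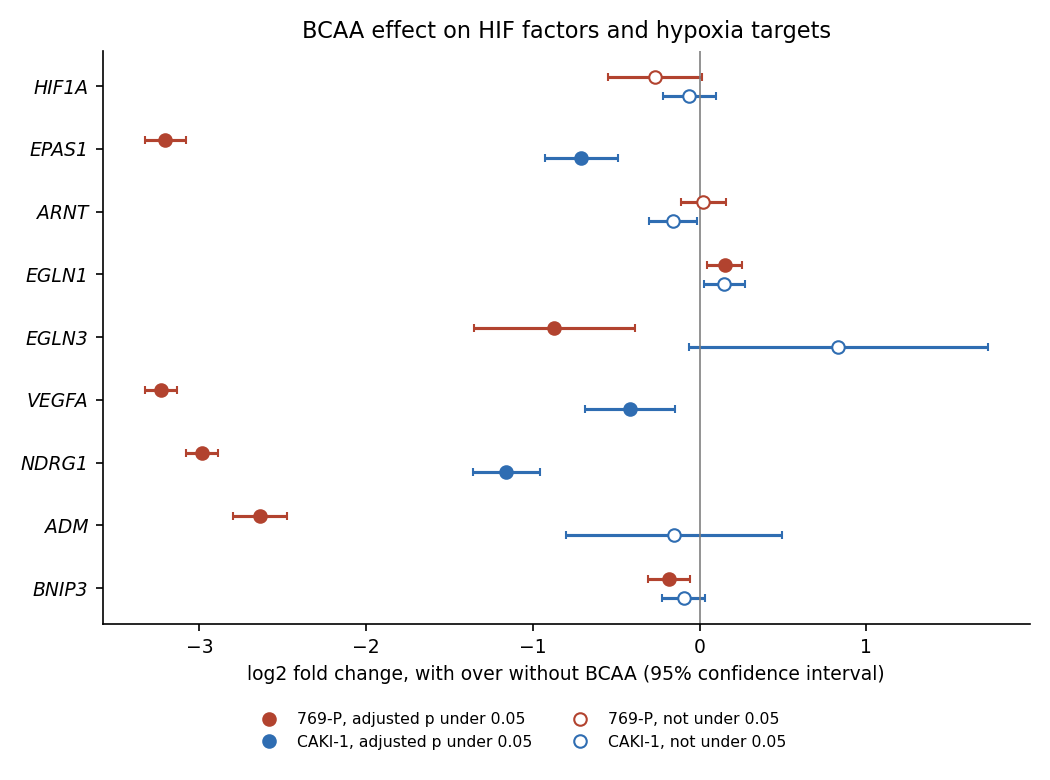
Log2 fold change with over without BCAA of the 9 members in 769-P (red) and CAKI-1 (blue), with bars for 95% confidence intervals from limma. Filled points passed an adjusted p of 0.05, 7 in 769-P and 3 in CAKI-1. The 769-P points of EPAS1, VEGFA, NDRG1 and ADM lie between -3.23 and -2.64, away from their CAKI-1 points.

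Levels were compared per kilobase of exon per 1000000 listed reads (RPKM, computed here from recovered reads). Without BCAA, NDRG1 led in 769-P at 97.9 ± 0.10 (SD, n = 2). VEGFA followed at 34.4 ± 0.40, ADM at 31.3 ± 1.7 and EPAS1 at 21.4 ± 0.62. EGLN1 (15.8 RPKM), BNIP3 (10.9) and ARNT (7.67) came next, and HIF1A (1.27) and EGLN3 (0.331) were lowest. No neighbours in this order overlapped between libraries. With BCAA, the order began with EGLN1 at 17.8 ± 0.22, NDRG1 at 12.5 ± 0.80 and BNIP3 at 9.70 ± 0.54. ARNT (7.88 RPKM) and ADM (5.08) stood in the middle, above VEGFA (3.70), EPAS1 (2.34), HIF1A (1.07) and EGLN3 (0.182). Again no neighbours overlapped. EPAS1 thus held more RNA per length than HIF1A in 769-P under both conditions. The order depended on the length used, since NDRG1 led EGLN1 with BCAA when the longest transcript replaced all exons.

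In CAKI-1, the levels with BCAA began with EGLN1 at 17.8 ± 0.47 RPKM, BNIP3 at 16.8 ± 0.41, ARNT at 12.2 ± 0.52 and HIF1A at 11.5 ± 0.94. ARNT and HIF1A overlapped. EPAS1 (9.12 RPKM) came next, and NDRG1 (4.81) overlapped with ADM (3.07), as did ADM with VEGFA (2.87). EGLN3 was lowest at 0.153. Without BCAA, BNIP3 at 17.7 and EGLN1 at 15.9 were followed by EPAS1 at 14.6, ARNT at 13.5, HIF1A at 11.8 and NDRG1 at 10.6 RPKM. VEGFA (3.74), ADM (3.07) and EGLN3 (0.0889) closed this order, in which no neighbours overlapped. EPAS1 lay below HIF1A with BCAA and above it without. The orders in CAKI-1 also depended on the length used. The longest transcript was far shorter than all exons for NDRG1 (3983 against 9823 bases) and BNIP3 (3066 against 5325). For EGLN1 the lengths were close (7097 against 7265 bases). For VEGFA both lengths were long (12167 against 14431 bases, the latter in only 4 exon blocks). A shorter transcript would give VEGFA a higher level per length, so its place in the orders of both lines is uncertain.

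**Figure D3:**
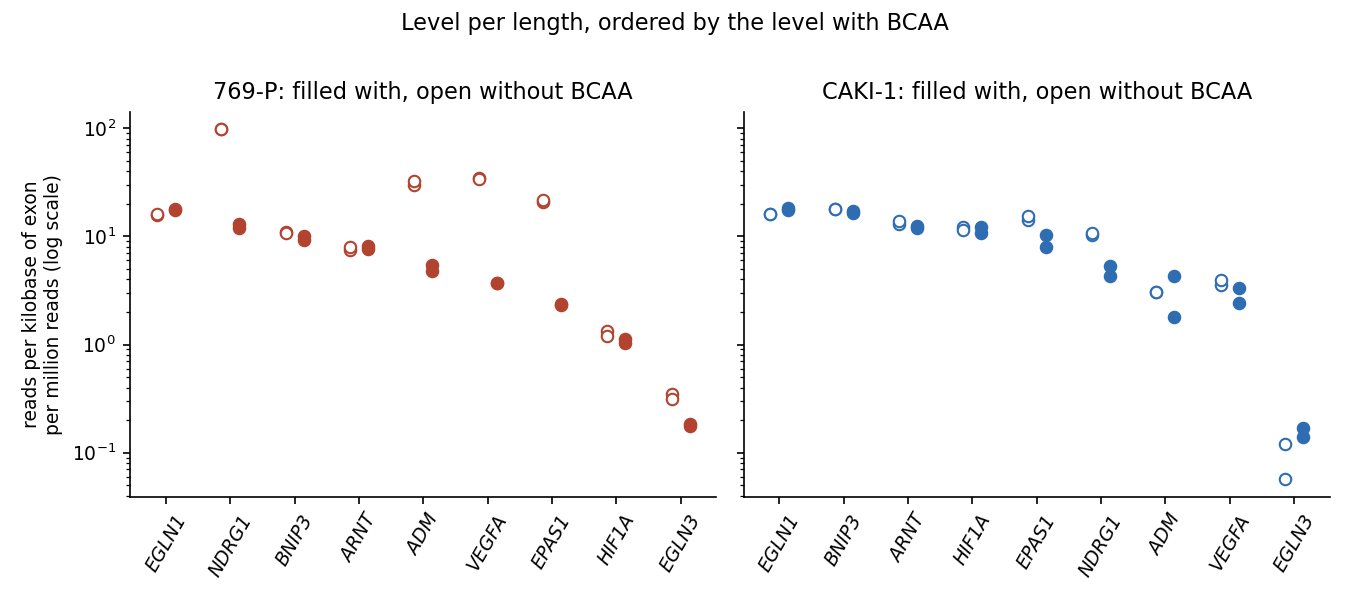
Reads per kilobase of exon per 1000000 listed reads (log scale) for each library of 769-P (left) and CAKI-1 (right), filled with and open without BCAA, with genes ordered by their level with BCAA. In 769-P without BCAA, NDRG1 reached 97.9 while HIF1A stood at 1.27. EGLN1 stood near 17.8 with BCAA in both lines.

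The tables of the 2 lines were normalized separately by the authors, so levels across lines were set side by side as reads per 1000000 listed reads, with no test. HIF1A was the lower in 769-P, at 5.5 with BCAA and 6.56 without, against 59.1 and 61.0 in CAKI-1. That is a 10.7-fold gap with BCAA and a 9.30-fold gap without. EPAS1 changed sides. With BCAA it was 3.90-fold higher in CAKI-1 (66.6 against 17.1), and without BCAA it was 1.46-fold higher in 769-P (156 against 107). VEGFA, NDRG1 and ADM were higher in 769-P under both conditions, by 1.29-fold, 2.60-fold and 1.66-fold with BCAA. Without BCAA these gaps were 9.19-fold, 9.26-fold and 10.2-fold. ARNT and BNIP3 were lower in 769-P, with ratios of 769-P over CAKI-1 of 0.646 and 0.579 with BCAA. EGLN1 overlapped between the lines under both conditions (129 against 129.6 on this scale with BCAA). In bulk RNA, more expressing cells and more RNA per cell cannot be told apart.

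Other genes of the pathway were read from lists chosen together with the members, beside 38.4% of all genes called in 769-P and 19.9% in CAKI-1. With any 1 CAKI-1 library left out, limma within the line called 0 genes (4084 to 5590 at an unadjusted p under 0.05), so every list count in CAKI-1 became 0, and counts from the fit over the other 7 libraries are given instead. Of 11 tested genes of the oxygen-sensing machinery in 769-P, 2 were higher and 3 lower with BCAA. The 3 lower ones were CITED2 (log2 fold change -0.98), CREBBP (-0.75) and EP300 (-0.62). CREBBP and EP300 are coactivators of HIF, and CITED2 competes with HIF for them. CITED2 stood at 2360.3 and 2377 with BCAA and at 4551 and 4811 without. The 2 higher ones were ELOC (0.27) and RBX1 (0.24), subunits of the VHL ubiquitin ligase. In CAKI-1, 3 of 12 were called, all lower, namely ARNT2 (-0.36), CITED2 (-0.22) and ELOB (-0.22). HIF3A was near the floor, with at most 7 reads in any library. The 5 of 11 and the 3 of 12 called were near the shares over all genes. With 1 library of 769-P left out, 0 to 1 were higher, and the 3 lower became 1 without either library of the group without BCAA. Over the other 7 libraries, 1 to 2 were lower and 0 to 1 higher in CAKI-1.

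Of 29 other hypoxia targets tested in 769-P, 18 were lower and 1 higher with BCAA, with a median log2 fold change of -0.48 beside -0.02 over all genes. DDIT4, an inhibitor of mTORC1 signalling, stood at 903 and 902 with BCAA and at 7951 and 8065 without (log2 fold change -3.15, adjusted p = 9.3e-12). ANGPTL4, a regulator of lipoprotein lipase, fell by 2.69 on the log2 scale (log2 fold change -2.685). FAM162A (0.95) was the gene that rose. In CAKI-1, 7 of 28 were lower and 7 higher, with a median of -0.06. The largest changes in CAKI-1 were those of NDUFA4L2 (-1.12), BHLHE41 (-0.86) and ANGPTL4 (-0.84). NDUFA4L2, a mitochondrial protein, had at most 3 reads in 769-P libraries. BNIP3L, the close relative of BNIP3, was lower in 769-P (-0.90) and in CAKI-1 (-0.43). Within 769-P, the 18 lower became 11 without either library with BCAA, 7 without replicate 1 of the group without BCAA and 8 without its replicate 2. Over the other 7 libraries, 15 to 17 were lower in 769-P, and 5 to 8 were lower and 4 to 6 higher in CAKI-1.

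The glycolytic genes, which HIF can raise, were called in both directions. Of 19 tested in 769-P, 8 were higher and 8 lower, with a median of -0.02. The glucose transporter SLC2A1 stood at 4022 and 3575 with BCAA and at 20773 and 20635 without (log2 fold change -2.45, adjusted p = 5.6e-11). HK2, a hexokinase, was lower as well (-1.26), and so was SLC2A3, which held 21 reads at most. PGAM1 (0.84), GPI (0.66) and LDHA (0.48) were higher with BCAA. In CAKI-1, 8 of 19 were higher and 2 lower, with a median of 0.17. LDHA, the lactate dehydrogenase subunit, stood at 45715 and 46143 with BCAA and at 27274 and 26734 without (log2 fold change 0.77, adjusted p = 3.9e-06), PGAM1 was higher (0.48) and SLC2A3 was lower (-0.62). Within 769-P, the 8 higher and 8 lower became 6 and 4 without replicate 1 with BCAA, 6 and 3 without replicate 2 with BCAA, and 2 and 2 without either library of the group without BCAA. With no filter on low values they were 7 and 5. Over the other 7 libraries, 8 were higher and 5 to 7 lower in 769-P, and 6 to 9 were higher and 0 lower in CAKI-1.

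Of 11 receptors and relatives of VEGFA and adrenomedullin, 6 had values in 769-P and 10 in CAKI-1. In 769-P, 6 of 11 had enough reads to test, of which 3 were called, all higher with BCAA. NRP1, a VEGF coreceptor, stood at 4559.9 and 4405 with BCAA and at 2123 and 2371 without (log2 fold change 0.998, adjusted p = 1.1e-07). NRP2 (0.36) and VEGFB (0.19) were the others. NRP1 alone was called with no filter on low values, with quantile normalization and with any 1 library left out within the line. In CAKI-1, 1 of 9 was called, FLT1, a VEGF receptor, which stood at 66.2 and 61.6 with BCAA and at 28.5 and 19.3 without (log2 fold change 1.41, adjusted p = 0.012). The FLT1 call was lost with any 1 library left out, as was every call in CAKI-1, so this loss is not particular to FLT1. FLT1 was not tested in fits over both lines. CALCRL, the receptor subunit for adrenomedullin, was low in both lines, between 59.2 and 248, and was not called.

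The amino acid response list holds ATF4 and genes that it raises when amino acids are short. All 8 were lower with BCAA in 769-P, with a median log2 fold change of -2.32, and 6 of 8 were lower in CAKI-1, with a median of -0.41. In 769-P, CHAC1, a glutathione-degrading enzyme, was lower by -3.74, ATF3 by -2.99 and DDIT3 by -2.91, the last 2 being stress-induced transcription factors. In CAKI-1, the largest falls were those of DDIT3 (-1.12), TRIB3 (-0.78) and ATF3 (-0.48). All 8 were called in 769-P with any 1 library left out, and 6 to 7 in CAKI-1 over the other 7 libraries. The falls of EPAS1, VEGFA, NDRG1 and ADM in 769-P lay within the range of this list, -3.74 to -0.97. The -0.97 was that of ATF4 itself, which was also lower in CAKI-1 (-0.43).

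**Figure D4:**
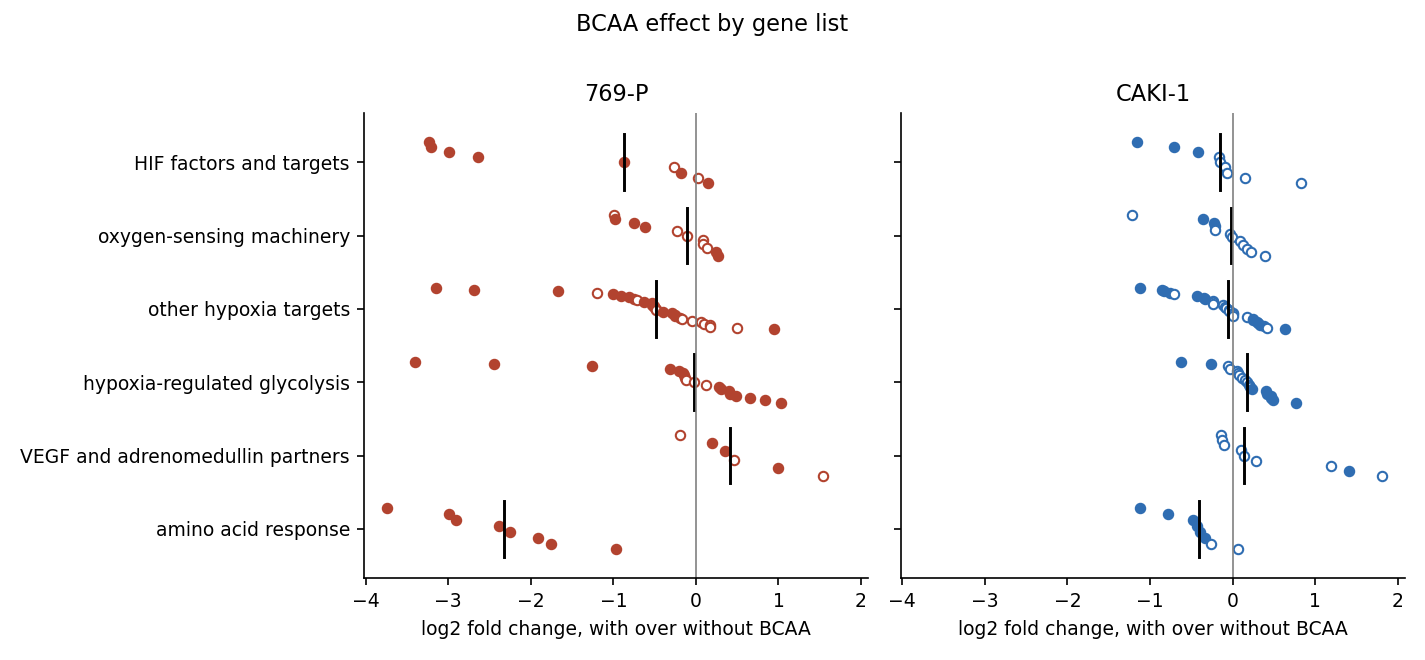
Log2 fold change with over without BCAA of each tested gene in the members and in 5 further lists, in 769-P (left) and CAKI-1 (right). Filled points passed an adjusted p of 0.05 and black bars are medians. In 769-P the medians ran from -2.32 for the amino acid response to 0.41 for VEGF and adrenomedullin partners, and in CAKI-1 from -0.41 to 0.17.

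The genes whose pattern came closest to that of the members called in both lines were ranked by Pearson correlation over the 8 libraries, centred within each line, among 10880 genes whose mean value reached 100 in each line. For EPAS1 these were CEBPG (r = 0.9995), SESN2 (0.9987) and STK24 (0.9987). For VEGFA they were MARS (0.9995), DDIT4 (0.9993) and ATF3 (0.9991). For NDRG1 they were DDIT3 (0.9994), C11orf58 (0.9989) and ATF4P4 (0.9989), the last being a processed copy of ATF4. The points share the step between conditions, which was large in 769-P, and the libraries themselves, so these values describe 8 points. C11orf58 shows what the measure leaves out, since its log2 fold change was -0.16 in 769-P. Between members, EPAS1 and VEGFA had r = 0.9956, EPAS1 and NDRG1 0.988, and EPAS1 and ARNT 0.094. EPAS1 also had r = 0.92 with BNIP3, 0.83 with HIF1A and -0.79 with EGLN1, members that changed far less than EPAS1 in 769-P.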

How the data were processed

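RNA from 8 samples of 769-P and CAKI-1 cells, 2 per condition, was sequenced. Per the labels, the submitters' processing notes name hg38, Trim Galore, TopHat2 2.1.0, SAMtools 1.3.1, HTSeq 0.6.0, DESeq2 and DESeq. The deposited values are a signal per gene, reads counted by the authors and divided by a size factor per library, in 1 table per line. All values (100%) came out as whole reads (tolerance 0.01), and each table lists genes with at least 2 reads. Whether counting used strand is not given in the sources used here. Depth was 30979773 to 64256834 reads.

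Symbols came from GENCODE 29 (25032 of 25431 genes in 769-P, 23881 of 24190 in CAKI-1). Genes whose mean value reached 1 were tested with limma 3.58.1 in R 4.3.3 (lmFit, eBayes with trend) on log2(value + 1), which understates the change of low genes. The line by treatment term was fitted over 8 libraries. An exact permutation test of 2 against 2 cannot go below p = 0.333. Scripts were tested on simulated data. Alternatives changed the pseudocount, filter, scaling, threshold, spread, depth, replicate block and libraries, and the tool (on recovered reads, edgeR 4.0.16 and DESeq2 1.42.0). Leave-outs with the spread of the other 7 libraries were added after seeing the data.

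Members, lists and rules were chosen with earlier results of these data known. All members are named, and of each other list at most 3 genes per line, those with the largest change among called genes with separate conditions and a mean of at least 10, plus the 3 genes most like each member called in both lines. 1 gene among the other hypoxia targets that met this rule is counted in its list and not reported here. ELOC, RBX1, EGLN2, FAM162A, BNIP3L, GPI, CALCRL, ATF4, HIF3A, VHL, PAX8, PAX2, LRP2, LUM, PDGFRB and BNIP3P1 were named after their values were seen.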

Additional observations from a re-analysis of the deposited data

Results flagged for a closer look

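The BCAA effect differed between 769-P and CAKI-1 for 5 of the 9 members, by the line by treatment term in limma with Benjamini-Hochberg adjustment. The difference in log2 fold change (769-P minus CAKI-1) was -2.496 for EPAS1, -2.815 for VEGFA, -1.826 for NDRG1, -2.485 for ADM and -1.703 for EGLN3. The first 4 were called under each of 18 alternatives, and EGLN3 under 11 of 18.

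Among the other named genes, the term was also past the threshold in the direction further down in 769-P for DDIT4 (-2.799), ANGPTL4 (-1.849), SLC2A1 (-2.393), SLC2A3 (-2.775), HK2 (-1.48), LDHA (-0.2858), CITED2 (-0.7579) and CREBBP (-0.7426). It was so for CHAC1 (-3.481), ATF3 (-2.511), DDIT3 (-1.789) and TRIB3 (-1.603) of the amino acid response. It was further up in 769-P for BHLHE41 (1.033), NRP1 (0.8563), NRP2 (0.4593), PGAM1 (0.3575) and ELOB (0.3568). LDHA also passed the threshold (-0.2858), having risen less in 769-P (log2 fold change 0.48) than in CAKI-1 (0.77).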

How the results depend on the processing

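EPAS1, VEGFA, NDRG1 and ADM were called lower in 769-P under all 19 alternatives, with log2 fold changes from -3.26 to -2.56. EPAS1 and NDRG1 in CAKI-1 were called under 15 of 19, all but the 4 leave-outs within the line. EGLN1 and EGLN3 in 769-P were called under 10 of 19, BNIP3 under 12 and VEGFA in CAKI-1 under 9.

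Leaving out 1 library within a line leaves a lone library assumed to vary like the other group. In 769-P the 4536 genes higher and 4069 lower became 1173 to 1632 and 658 to 1456, and members higher went from 1 to 0. In CAKI-1 the 2312 higher and 1931 lower, and the 3 members lower, became 0 by limma, with 4084 to 5590 genes at an unadjusted p under 0.05. With the spread of the other 7 libraries, 3447 to 4688 genes were called in CAKI-1, members lower were 2 to 4 and members higher 0 to 1, and in 769-P members higher were 0 to 1. With at least 1.5-fold, 1984 genes were higher and 1911 lower in 769-P, 725 and 481 in CAKI-1, and 0 members were higher in 769-P. Quantile normalization gave 1417 higher in CAKI-1 and, like no filter, 0 members higher in 769-P. The spread of all 8 libraries gave 1 member higher in CAKI-1 (EGLN1). The cause of these shifts was not tested.

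Signs reversed for genes that were not called. ARNT in 769-P was at -0.0334 with quantile normalization and the EGLN1 difference at -0.00369 in thinned reads. With 1 library left out, log2 fold changes in 769-P ran from -0.0281 to 0.0734 for ARNT (-0.0269 without replicate 1 with BCAA), -0.499 to 0.278 for ARNT2 (0.0201 without the same library) and -0.345 to 0.675 for NDUFA4L2. In CAKI-1 they ran from -0.143 to 0.0166 for HIF1A, -0.785 to 0.48 for ADM and -0.136 to 0.123 for CREBBP (0.0692 without replicate 2 with BCAA), and in the difference from -0.0272 to 0.0322 for EGLN1 and -0.141 to 0.635 for ARNT2. ADM at -0.785 and at 0.48 passed the test with the spread of the other 7 libraries (adjusted p = 0.00017 and 0.0059).

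With the replicate block, 4692 genes were higher and 4233 lower in 769-P, 2133 and 1803 in CAKI-1, and member counts were 1 and 6, and 0 and 3. Over the genes compared, same-numbered libraries showed little joint deviation (correlation -0.0884 in 769-P and 0.0615 in CAKI-1). This cannot show whether the numbers pair the libraries, which the labels do not say. Reads limit EGLN3, with 13 to 100 per library.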
